A study of Arabidopsis thaliana with 9 samples.

Results

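Nuclear-encoded photosynthesis genes were followed in whole roots of Arabidopsis thaliana on Affymetrix ATH1 arrays, which measure each transcript by 1 or more probe sets. The set was a list of 59 nuclear loci of light harvesting, both photosystems, photosynthetic electron transport, the chloroplast ATP synthase and the Calvin cycle, found on the array by locus. Of these 59, 12 were on a probe set that the probe table assigns to 1 gene, out of 13356 genes measured in that way, and 10 of the 12 passed the filter on dim probe sets. The other 47 loci, among them all 6 genes of the photosystem I antenna and all 4 small subunit genes of Rubisco, were not analysed here.

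The 9 samples were roots taken 7 days after germination, 3 biological replicates in each of 3 groups. The first group was ga1-3 SCL3OE, in which SCL3 is overexpressed in ga1-3, and the second was the double mutant ga1-3 scl3-1, which lacks SCL3 function. The third, ga1-3 alone, served as the control for both. Below, SCL3OE stands for ga1-3 SCL3OE and scl3-1 for the double mutant ga1-3 scl3-1, in text and plots, and neither name means a line with a wild-type GA1 gene. All plants therefore carried ga1-3, a mutation in GA1, an early gibberellin synthesis gene. SCL3 belongs to the GRAS family, as do the DELLA proteins that repress gibberellin responses. The promoter behind the overexpression and the number of lines are not given in the sources used here. SCL3 and GA1 were on no probe set named here, so the labels were not checked by the signal of either gene. Plants had 16 h of light and 8 h of dark at 22 °C. Nothing in the labels says whether replicates came from separate plantings, so p-values measure only the spread between these samples, which may be technical in part.

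In photosynthesis, light-harvesting proteins pass energy to the 2 photosystems, electrons then move from water to NADP through the thylakoid membrane, and the proton gradient drives an ATP synthase whose product feeds carbon fixation in the Calvin cycle. The complexes are mosaics: core subunits are encoded in the plastid genome, while antenna proteins, peripheral subunits and most Calvin cycle enzymes are encoded in the nucleus and imported. Root plastids are mostly non-green, but roots kept in light can green, the more so with raised cytokinin signalling. Light, the circadian clock, cytokinin, auxin and gibberellin signalling all act on these genes in shoots.

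Values are MAS5 signals, a summary of probe brightness on a linear scale, and their trimmed mean was 496 to 497 on every array. A signal of 105.9, the mean over arrays of their 40th percentile, is used below as the filter level, and a probe set was tested where at least 3 arrays lay at or above their own 40th percentile. Log2 changes come from limma over all 9 arrays with their standard error (SE), and a gene is called at a Benjamini-Hochberg adjusted p under 0.05 over 14117 tested probe sets. The arrays of SCL3OE had a median signal of 183 to 185, against 195 to 204 in scl3-1 and 190 to 201 in ga1-3, and their 99th percentile was 8374 to 9087, against 5867 to 6203 and 5846 to 6649. Within groups, SCL3OE replicate 3 was the highest for 9 of the 12 genes, and scl3-1 replicate 2 was the highest of its group for 8, and scl3-1 replicate 3 the lowest for 7.

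**Figure D1:**
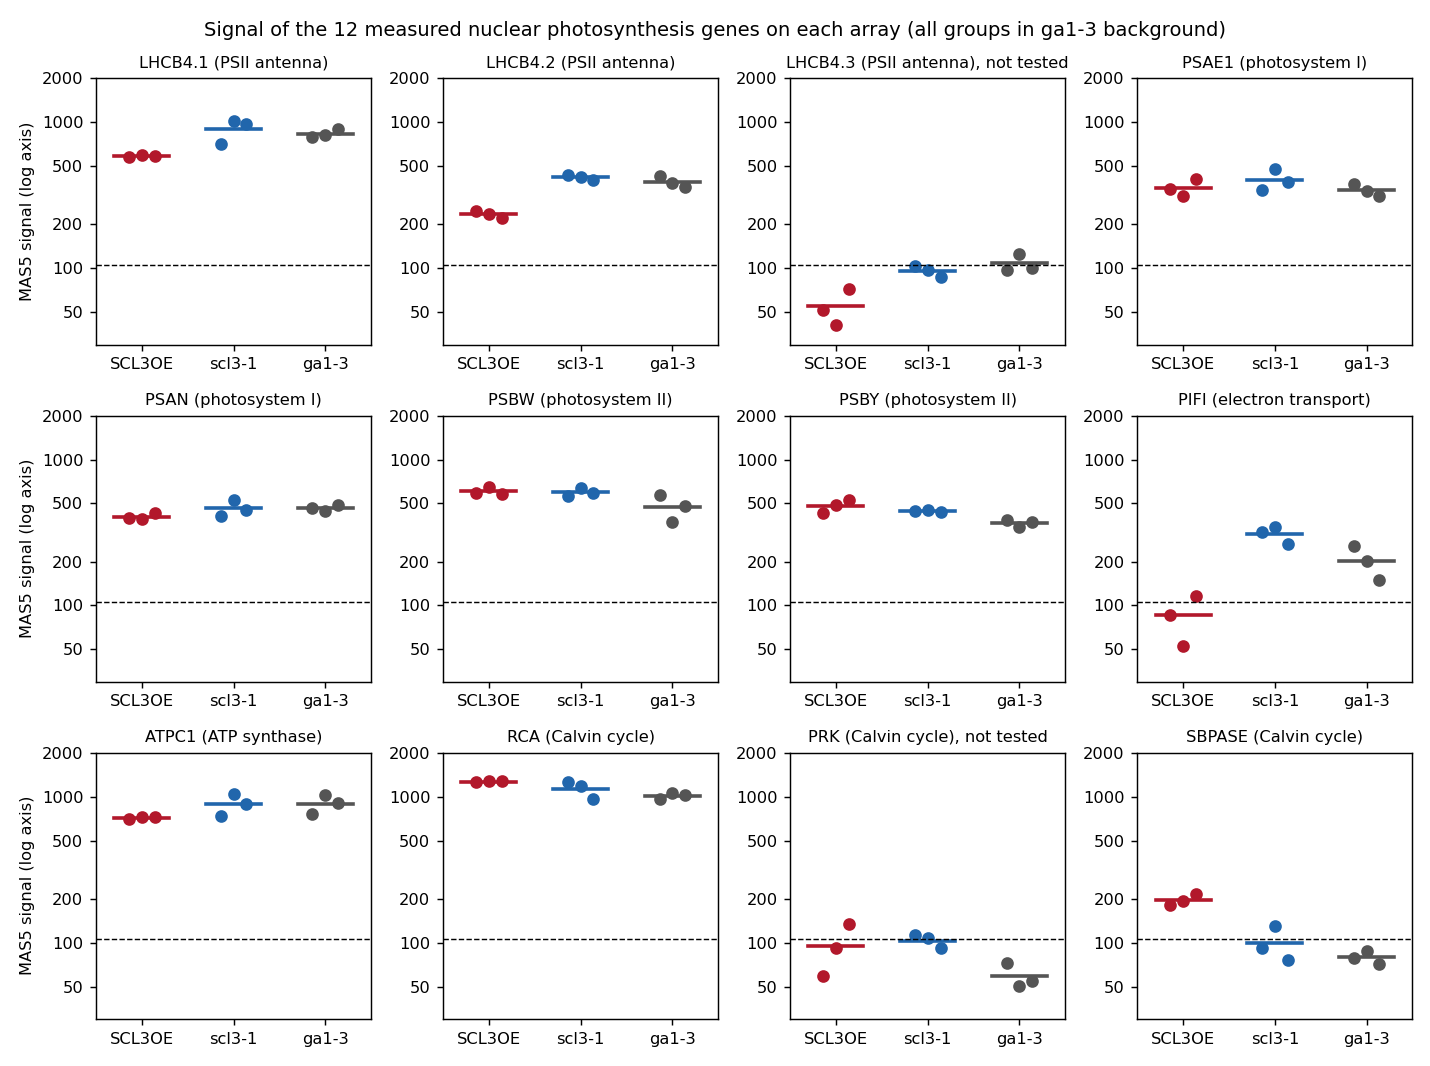
MAS5 signal on a log axis for each of the 12 measured nuclear photosynthesis genes; points are single arrays, bars are means of 3 arrays, and the dashed line is the filter level of 105.9. LHCB4.1, LHCB4.2 and PIFI lie lower and SBPASE higher on all 3 SCL3OE arrays than on any ga1-3 array, while LHCB4.3 and PRK stay near or below the filter level.

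With SCL3 overexpressed, the nuclear photosynthesis genes did not move one way. Of the 10 tested genes, 4 rose against ga1-3 (SBPASE, PSBY, PSBW and RCA), 3 fell (PIFI, LHCB4.2 and LHCB4.1) and 3 were not called (ATPC1, PSAN and PSAE1). Over all probe sets, 18% were called higher and 25.9% lower in this comparison, 43.8% in all, so 7 calls among 10 genes stand in a comparison in which calls were frequent. The median change of the 10 genes was -0.08 on the log2 scale, beside -0.07 over all tested probe sets, and single genes ran from -1.28 to 1.30. By class of the listed loci, both tested antenna genes fell, both tested photosystem II subunit genes rose and both tested Calvin cycle genes rose. Of these rises, SBPASE passed the dim filter through SCL3OE, the group in which it is high. The PSBW and RCA calls ended when any 1 SCL3OE array was left out. In bulk roots, fewer cells of a type and less RNA per cell cannot be told apart.

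The 3 measured antenna genes encode LHCB4 (CP29), a minor antenna protein that links the main light-harvesting trimers to photosystem II. LHCB4.1 (AT5G01530) had signals of 577, 599 and 587 in SCL3OE, 709, 1025 and 976 in scl3-1, and 800, 815 and 897 in ga1-3. Every SCL3OE array was below every array of both other groups. The change against ga1-3 was -0.51 (SE 0.12, adjusted p = 0.00405 by limma), a 1.42-fold fall. Its paralog LHCB4.2 (AT3G08940) had 247, 237 and 220 in SCL3OE, 433, 423 and 405 in scl3-1, and 428, 387 and 358 in ga1-3. Here too the SCL3OE arrays lay below all others, and the gene fell 1.67-fold against ga1-3 (log2 change -0.74, SE 0.11, adjusted p = 9.53e-05 by limma). LHCB4.3 (AT2G40100), the third paralog, had 52.2, 40.8 and 72.4 in SCL3OE, 103, 97.0 and 87.9 in scl3-1, and 98.1, 125 and 101 in ga1-3. The SCL3OE arrays were again lowest with no overlap, but only 1 of its 9 arrays reached its own 40th percentile, so the gene was not tested. Its means were 55.1 ± 16.0 in SCL3OE and 108 ± 15.0 in ga1-3 (SD, n = 3 each), and with no filter on dim probe sets the adjusted p by limma was 0.00873.

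PIFI (AT3G15840) had the widest range over the arrays among the 12 measured nuclear genes, 6.48-fold between its highest and lowest signal. It encodes a thylakoid-associated plastid protein named for the post-illumination increase of chlorophyll fluorescence and linked to chlororespiratory electron flow through the plastid NDH complex. Its signals were 86.6, 53.0 and 117 in SCL3OE, 317, 344 and 264 in scl3-1, and 254, 202 and 149 in ga1-3. The 3 groups did not overlap: scl3-1 was highest, ga1-3 between and SCL3OE lowest. Against ga1-3 it fell 2.43-fold in SCL3OE (log2 change -1.28, SE 0.25, adjusted p = 0.000695 by limma). SCL3OE replicates 1 and 2 were below the filter level, and with an offset of 50 before log2 the change was -0.90. Both measured NDH subunit genes, of 9 listed, were below the filter and not tested.

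The tested photosystem II genes PSBW (AT2G30570) and PSBY (AT1G67740) encode small membrane-spanning subunits. PSBW had 593, 650 and 577 in SCL3OE, 559, 635 and 593 in scl3-1, and 569, 371 and 484 in ga1-3. All SCL3OE arrays exceeded all ga1-3 arrays, the nearest being 577 against 569, and the ga1-3 arrays were the more spread. The gene rose 1.30-fold against ga1-3 (log2 change 0.37, SE 0.14, adjusted p = 0.0354 by limma). That call ended without any 1 array of SCL3OE (adjusted p 0.0563 to 0.125), without ga1-3 replicate 2 (log2 change 0.21, adjusted p = 0.192) or replicate 3 (0.0528), with no dim filter (0.0521) and by eBayes without trend (0.0525). PSBY had 430, 486 and 525 in SCL3OE, 442, 448 and 440 in scl3-1, and 388, 345 and 371 in ga1-3. Both SCL3 lines lay above ga1-3 on every array. PSBY rose 1.30-fold in SCL3OE (log2 change 0.38, SE 0.11, adjusted p = 0.0103 by limma), a call that ended without SCL3OE replicate 3 (0.0586).

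The Calvin cycle genes were the sedoheptulose bisphosphatase gene SBPASE, which acts in regeneration of the carbon acceptor, the Rubisco activase gene RCA and the phosphoribulokinase gene PRK. SBPASE (AT3G55800) had 180, 192 and 216 in SCL3OE, 91.7, 130 and 76.0 in scl3-1, and 78.8, 88.1 and 71.9 in ga1-3. It was higher on every SCL3OE array than on any other, and rose 2.46-fold against ga1-3 (log2 change 1.30, SE 0.20, adjusted p = 9.59e-05 by limma). It passed the dim filter through its 3 SCL3OE arrays and 1 scl3-1 array, the group in which it is high, and with an offset of 50 before log2 its change was 0.92. RCA (AT2G39730) had 1253, 1270 and 1284 in SCL3OE, 1258, 1185 and 960 in scl3-1, and 964, 1058 and 1024 in ga1-3. The SCL3OE arrays were close together and above all ga1-3 arrays, a 1.25-fold rise (log2 change 0.32, SE 0.10, adjusted p = 0.0211 by limma). The RCA call ended without SCL3OE replicate 1 (adjusted p = 0.0515), 2 (0.0577) or 3 (0.063) and without ga1-3 replicate 1 (0.054). PRK (AT1G32060) had 59.5, 92.0 and 134 in SCL3OE, 112, 107 and 91.2 in scl3-1, and 72.1, 50.1 and 54.5 in ga1-3. SCL3OE and ga1-3 overlapped for PRK, while every scl3-1 array was above every ga1-3 array. Only 2 of its 9 arrays reached their own 40th percentile, so it was not tested. With no filter on dim probe sets its log2 change against ga1-3 was 0.63 in SCL3OE (SE 0.29, adjusted p = 0.13 by limma) and 0.83 in scl3-1 (SE 0.29, adjusted p = 0.433).

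The 3 genes that were not called belong to photosystem I and the ATP synthase. ATPC1 (AT4G04640) encodes the gamma subunit, the rotating shaft of the chloroplast ATP synthase. Its signals were 704, 720 and 729 in SCL3OE, 739, 1035 and 891 in scl3-1, and 758, 1021 and 898 in ga1-3. All SCL3OE arrays lay below all others, yet the change against ga1-3 of -0.30 (SE 0.13, 95% interval -0.58 to -0.03) had an adjusted p of 0.0683 by limma. It passed with a replicate block (0.0342), with only the 6 arrays compared (0.0434), without scl3-1 replicate 1 (0.0386) and without ga1-3 replicate 1 (log2 change -0.42, adjusted p = 0.0168). The change was smaller after quantile normalization (-0.18, adjusted p = 0.308 by limma), with median-centred arrays (-0.22, 0.192) and without ga1-3 replicate 2 (-0.20, 0.265).

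PSAE1 (AT4G28750) encodes a stromal subunit near the ferredoxin site of photosystem I, and PSAN (AT5G64040) a lumenal subunit near the plastocyanin site. PSAE1 had 349, 313 and 407 in SCL3OE, 345, 483 and 391 in scl3-1, and 381, 341 and 315 in ga1-3. The groups overlapped, and the log2 change in SCL3OE was 0.04 (95% interval -0.26 to 0.34, adjusted p = 0.852 by limma). PSAN had 399, 390 and 431 in SCL3OE, 407, 531 and 449 in scl3-1, and 464, 444 and 488 in ga1-3. Its SCL3OE arrays lay below the ga1-3 arrays, with a log2 change of -0.20 (95% interval -0.44 to 0.05, adjusted p = 0.184 by limma). Without overlap between groups, 4 of the 10 tested genes were higher and 5 lower in SCL3OE, where 22.1% and 31.5% of all tested probe sets, 53.6% together, did not overlap.

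**Figure D2:**
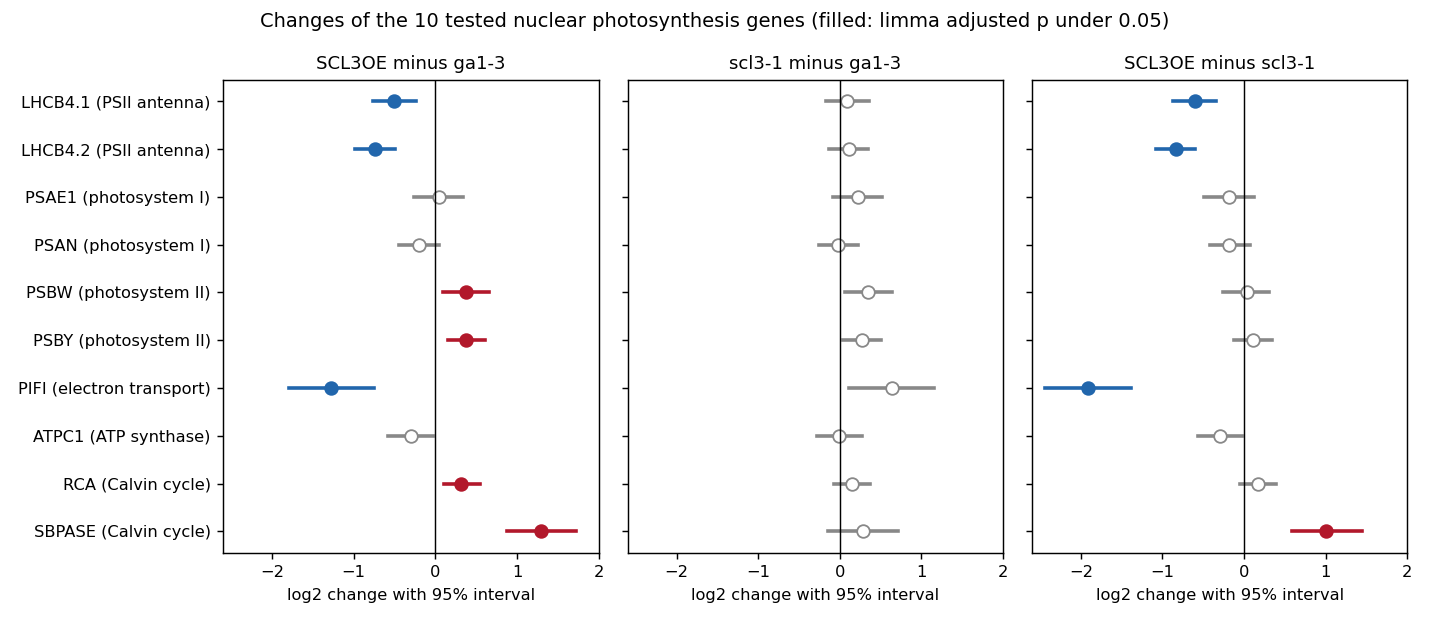
Log2 change with its 95% interval for the 10 tested nuclear photosynthesis genes in the 3 comparisons; filled points passed an adjusted p of 0.05 in limma. The largest changes are those of PIFI (-1.28 in SCL3OE against ga1-3 and -1.91 against scl3-1) and SBPASE (1.30 and 1.01), and no point is filled for scl3-1 against ga1-3.

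Loss of SCL3 gave no call among these genes. By limma, 0 of the 10 tested genes were called in scl3-1 against ga1-3, where 0.538% of all probe sets were (0.368% higher and 0.17% lower), and 0 by eBayes without trend. At an unadjusted p under 0.05 there were 3, PIFI, PSBW and PSBY, where 10.7% of all probe sets were. Changes ran from -0.02 to 0.64 on the log2 scale, with a median of 0.19 beside 0.01 over all tested probe sets. PIFI and PSBY were higher on every scl3-1 array than on any ga1-3 array, as were 7.37% of all tested probe sets, and 0 genes were lower on every array, where 6.68% were (14.1% in both directions). PIFI was at the top of this range, at 308 ± 40.5 in scl3-1 and 202 ± 52.5 in ga1-3 (SD, n = 3 each), a log2 change of 0.64 (SE 0.25, adjusted p = 0.347 by limma). Its 95% interval was 0.11 to 1.16, and 0.793% of all tested probe sets had a larger change in either direction. PSBW changed by 0.35 (SE 0.14) and PSBY by 0.27 (SE 0.11), with adjusted p values of 0.347 and 0.375 by limma. For LHCB4.1 and LHCB4.2 the intervals were -0.17 to 0.36 and -0.13 to 0.35. The comparisons of both lines with ga1-3 share the ga1-3 arrays, so a low ga1-3 array, such as replicate 2 for PSBW, enters both.

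Set directly against each other, SCL3OE and scl3-1 differed for 4 of the 10 tested genes, 1 higher and 3 lower in SCL3OE, where 15.5% and 23.6% of all probe sets were (39.2% in all). Without overlap, 1 was higher and 4 lower, where 21.3% and 31.5% of all probe sets were (52.8% in all). PIFI was 3.77-fold lower in SCL3OE (log2 change -1.91, SE 0.25, adjusted p = 2.25e-05 by limma), and 0.786% of tested probe sets had a larger change. LHCB4.2 was 1.79-fold lower (log2 change -0.84, SE 0.11, adjusted p = 2.98e-05 by limma) and LHCB4.1 1.52-fold lower (-0.60, SE 0.12, adjusted p = 0.00141). SBPASE was 2.02-fold higher (1.01, SE 0.20, adjusted p = 0.000897 by limma). The rises of PSBW, PSBY and RCA against ga1-3 were not matched by a difference from scl3-1, with intervals of -0.26 to 0.31 for PSBW, -0.12 to 0.34 for PSBY and -0.05 to 0.39 for RCA. ATPC1 changed by -0.29 (SE 0.13, adjusted p = 0.0838 by limma), and passed with a replicate block (0.0432) and without scl3-1 replicate 1 (log2 change -0.42, adjusted p = 0.0173). Its change was smaller after quantile normalization (-0.18, adjusted p = 0.331 by limma) and with median-centred arrays (-0.17, 0.322).

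Subunits of the same complexes that are encoded in the plastid were measured on the same arrays, and no test of nuclear against plastid genes as groups was made. Of 33 plastid-encoded photosynthesis genes on named probe sets, 20 were tested, of which 17 rose and 2 fell, where 18% and 25.9% of all probe sets were called. Their median log2 change was 0.95, beside -0.08 for the 10 nuclear genes. The count of 17 includes psbA, for a photosystem II reaction centre protein, which passed the dim filter only through its SCL3OE arrays, at 190, 227 and 160, against 55.9 to 90.3 on the other 6 arrays. With no filter on dim probe sets, 22 of the 33 rose and 2 fell. In photosystem I, all 3 tested plastid genes rose by 1.35 to 2.19 on the log2 scale, while PSAE1 and PSAN were not called. The reaction centre gene psaB and the small subunit gene psaI changed by 1.35 (SE 0.10) and 2.09 (SE 0.12). Signals of psaI were 942, 986 and 792 in SCL3OE, 216, 216 and 256 in scl3-1, and 227, 215 and 194 in ga1-3, so the groups were far apart where those of PSAE1 overlapped.

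In the ATP synthase, the plastid genes atpA, atpB and atpE, for the alpha, beta and epsilon subunits, rose by 2.00 (SE 0.20), 0.96 (SE 0.09) and 1.01 (SE 0.11), while ATPC1 had -0.30. After quantile normalization atpB and atpE changed by 0.60 and 0.53. In photosystem II, 8 of 11 tested plastid genes rose, psbA among them, and 2 fell, so nuclear and plastid genes both held rises, of 0.37 and 0.38 for PSBW and PSBY. The 2 that fell, psbE (-0.97, SE 0.11) and psbF (-0.48, SE 0.09), encode the subunits of cytochrome b559. Genes with the adjoining locus numbers did not fall with them. Of these, psbL rose (0.66, SE 0.20, adjusted p = 0.0133 by limma) and psbJ was not called (0.02, SE 0.13). The psbL call ended without SCL3OE replicate 2 or ga1-3 replicate 2. The Rubisco large subunit gene rbcL rose by 1.27 (SE 0.14), beside 0.32 for the activase gene RCA. The cytochrome f gene petA, the other plastid gene chosen by rule, rose by 1.44 (SE 0.10), and its nuclear partner PETC was among the loci not analysed here. The genes atpA, atpB, atpE, psbA, psbE, psbF, psbJ, psbL and rbcL were named after their values were seen. In scl3-1 against ga1-3, limma called 0 of the 20 plastid genes (0 also by eBayes without trend), with changes of -0.10 to 0.49.

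**Figure D3:**
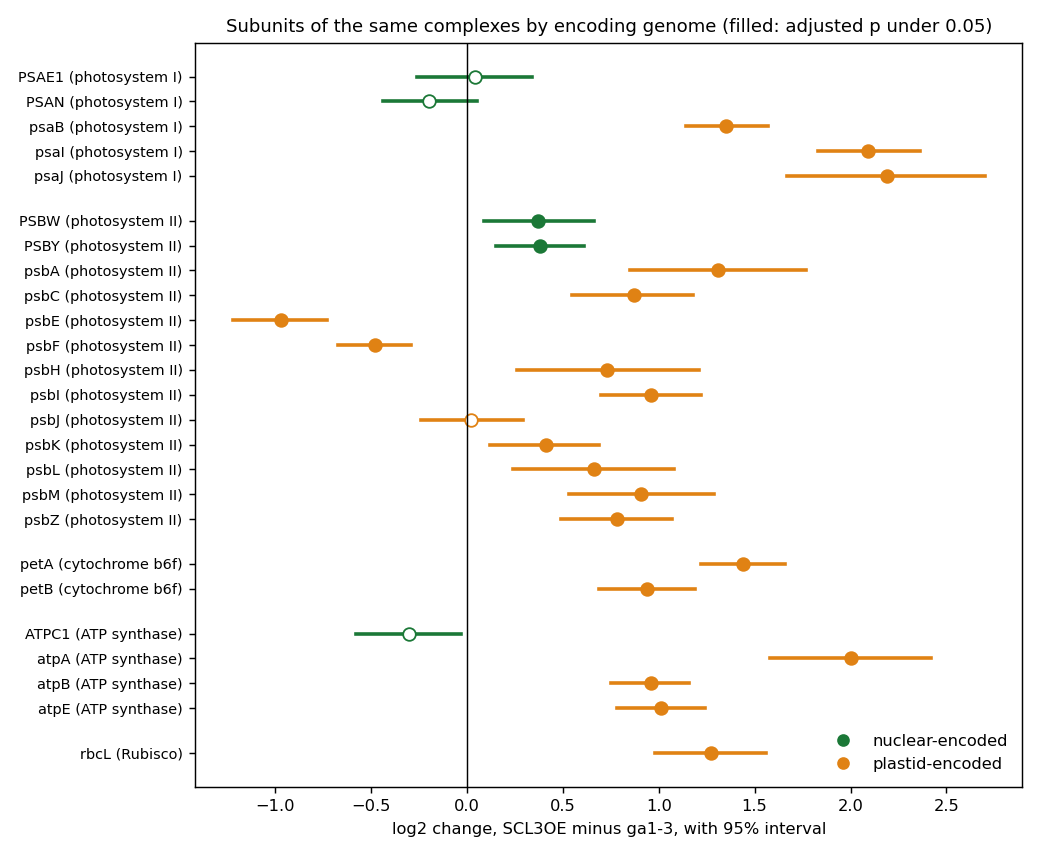
Log2 change in SCL3OE against ga1-3 with its 95% interval for tested subunits of 5 complexes, green for nuclear and orange for plastid genes; filled points passed an adjusted p of 0.05 in limma. Plastid genes of photosystem I and the ATP synthase lie between 0.96 and 2.19, to the right of the nuclear PSAE1, PSAN and ATPC1, which lie between -0.30 and 0.04.

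Other nuclear genes around photosynthesis were few on named probe sets. Where no other comparison is named, counts and changes below are for SCL3OE against ga1-3, in which 43.8% of all probe sets were called. Of 8 tested genes of chlorophyll and haem synthesis, 1 fell in SCL3OE and 7 were not called, with a median of -0.23. The gene that fell was HEMA2, a glutamyl-tRNA reductase gene expressed in roots (-0.52, SE 0.14, adjusted p = 0.00803 by limma). The protochlorophyllide oxidoreductase gene PORB and the methyltransferase gene CHLM changed by -0.32 (SE 0.17) and -0.23 (SE 0.11) and were not called. CHLM passed without ga1-3 replicate 1 (-0.30, adjusted p = 0.0399 by limma), but was smaller after quantile normalization (-0.10, 0.517) and with median-centred arrays (-0.14, 0.334). In scl3-1 against ga1-3, CHLM was lower on every array, but not called (-0.49, SE 0.11, adjusted p = 0.058 by limma). In SCL3OE against scl3-1, 4 of the 8 genes were called lower and 0 higher, where 23.6% and 15.5% of all probe sets were. PORB was among the 4 (-0.51, SE 0.17, adjusted p = 0.0242 by limma). The 3 tested photorespiration genes were called in mixed directions in SCL3OE against ga1-3, 2 lower and 1 higher. HPR1, the peroxisomal hydroxypyruvate reductase gene, fell (-0.50, SE 0.12, adjusted p = 0.00351 by limma), as did the glycerate kinase gene GLYK (-0.58, SE 0.14, adjusted p = 0.00323). GLDT, for a subunit of glycine decarboxylase, rose (0.41, SE 0.13, adjusted p = 0.0203 by limma), a call that ended after quantile normalization (0.113) and without SCL3OE replicate 1 or 3 or ga1-3 replicate 2 or 3 (0.0615 to 0.0697). The fall of GLYK was not particular to SCL3OE. In scl3-1 against ga1-3 it was lower on every array, but not called (-0.56, SE 0.14, adjusted p = 0.0965 by limma). Between SCL3OE and scl3-1 GLYK hardly differed (-0.02, SE 0.14, adjusted p = 0.918 by limma).

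Of 5 tested genes of photosystem assembly and regulation, PGRL1B, a gene of cyclic electron flow, fell in SCL3OE against ga1-3 (-0.47, SE 0.14, adjusted p = 0.014 by limma). That call ended after quantile normalization (0.057) and without ga1-3 replicate 2 (0.0671). The others were not called, among them HCF101 (0.33, SE 0.14), which passed after quantile normalization (0.41, adjusted p = 0.0301) and median-centring (0.41, 0.0302), by eBayes without trend (0.0303) and without ga1-3 replicate 3 (0.42, 0.0372), and CURT1A (0.10, SE 0.09). The plastid phosphoglycerate kinase gene PGK2 fell (-0.29, SE 0.10, adjusted p = 0.0333 by limma), but passed under neither quantile normalization (0.092) nor median-centring (0.153), nor by eBayes without trend (0.0591), nor without SCL3OE replicate 1 or 2 or ga1-3 replicate 2 or 3 (0.0698 to 0.13). ATPC2, the other tested gene of its list, was not called (-0.08), nor was either tested light-harvesting-like gene, LIL3:2 (-0.03) or LIL3:1 (0.17). Of 3 genes of root-type electron transport, 0 were on a named probe set. In SCL3OE against scl3-1, 2 of the 5 assembly and regulation genes were called higher and 1 lower, where 15.5% and 23.6% of all probe sets were. By limma, HCF101 (0.43, SE 0.14, adjusted p = 0.0238) and CURT1A (0.32, SE 0.09, adjusted p = 0.0138) were higher. PGRL1B was lower (-0.46, SE 0.14, adjusted p = 0.0164 by limma).

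HYH, a bZIP gene of light signalling related to HY5, was the single measured gene of 24 listed regulators. Its signals were 611, 690 and 475 in SCL3OE, 199, 234 and 192 in scl3-1, and 224, 131 and 152 in ga1-3. The SCL3OE arrays stood above all others, and HYH rose by 1.83 on the log2 scale against ga1-3 (SE 0.18, adjusted p = 1.96e-06 by limma). Its change ran opposite to that of the LHCB4 genes and PIFI and the same way as that of SBPASE, and its part in either was not tested.

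**Figure D4:**
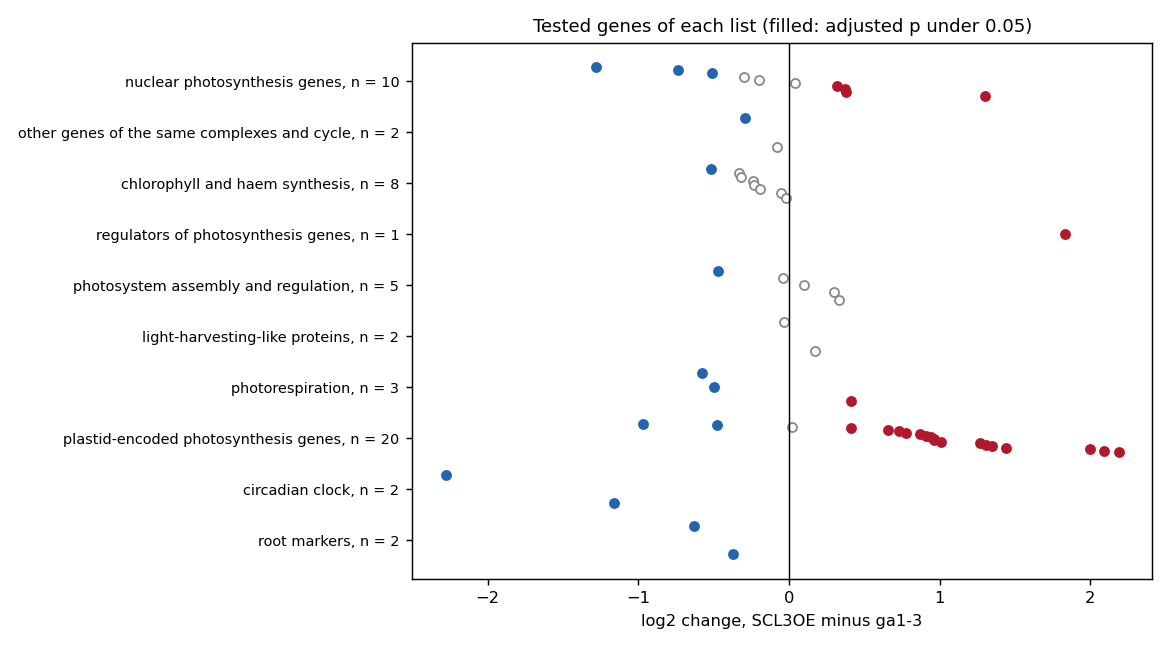
Log2 change in SCL3OE against ga1-3 of every tested gene in each list, 1 point per gene spread vertically by rank; filled points passed an adjusted p of 0.05 in limma, red for higher and blue for lower. The nuclear photosynthesis genes lie on both sides of 0, from -1.28 to 1.30, while 17 of 20 plastid-encoded genes are filled to the right.

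Markers of other tissues and of the clock were measured beside these genes. Of 20 shoot markers, 5 were on named probe sets (the stomatal genes FAMA, SPCH and MUTE and the leaf polarity genes YAB3 and YAB5), and 0 passed the dim filter. Their summed signal was 61.3 to 99.4 in SCL3OE, 21.9 to 58.2 in scl3-1 and 29.5 to 60.8 in ga1-3, with none listed at 0. On SCL3OE replicates 1, 2 and 3, YAB3 made up 41.0, 63.9 and 51.3 of sums of 61.3, 99.4 and 69.9. YAB3 alone of the 5 did not overlap between SCL3OE and the others, at 41.0 to 63.9 in SCL3OE, 3.19 to 19.2 in scl3-1 and 5.12 to 9.38 in ga1-3, all below the filter level. Over all tested probe sets, the SCL3OE arrays all lay above those of ga1-3 for 22.1% and above those of scl3-1 for 21.3%. These shares cover only probe sets that passed the dim filter, which YAB3 did not, and none was taken for dim probe sets or for both groups at once. The summed signal of the 12 nuclear photosynthesis genes was 4929 to 5297 in SCL3OE, 5515 to 6444 in scl3-1 and 5212 to 5257 in ga1-3. Both measured root markers, of 17 listed, passed the filter: the root hair gene EXPA7 and the cortex gene CO2 changed by -0.37 (SE 0.12) and -0.63 (SE 0.20) in SCL3OE, with adjusted p values of 0.0212 and 0.0171 by limma. The EXPA7 call ended under quantile normalization (0.103) and without SCL3OE replicate 1 (0.0689) or 2 (0.0557) or ga1-3 replicate 1 (log2 change -0.22, 0.0941), and the CO2 call without SCL3OE replicate 2 (0.0751) or ga1-3 replicate 1 (0.08). Of 20 clock genes, GI and COR27 were measured, and both fell in SCL3OE (-1.16, SE 0.16, and -2.28, SE 0.25), while GI rose in scl3-1 (0.97, SE 0.16, adjusted p = 0.0164 by limma). COR27 signals in SCL3OE were 37.5, 52.6 and 46.9, all below the filter level. The gene passed the dim filter through its 6 scl3-1 and ga1-3 arrays, and with an offset of 50 before log2 its change was -1.50. Beside these root and clock genes, 25.9% of all probe sets were called lower in SCL3OE against ga1-3. In scl3-1 against ga1-3, 0.368% were called higher. The GI call in scl3-1 ended by eBayes without trend (0.0512) and without scl3-1 replicate 2 or ga1-3 replicate 2 or 3 (0.0567 to 0.0913). The part of these cell types and of the clock in the changes of the photosynthesis genes was not tested.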

How the data were processed

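Whole-root RNA of 9 samples (300 ng each) was labelled with biotin and hybridised to ATH1 arrays, per the labels' protocols. The deposited values are linear MAS5 signal intensities. The submitters' processing notes name MAS5 and Affymetrix Expression Console 1.1 as the authors' tools, and the trimmed mean of each array was 496 to 497. No detection calls, batches or genome build were given in the sources used here, so no coordinates are printed. Genes were named through a probe table (14016 of 22746 probe sets, 13513 with 1 gene) and RefSeq's TAIR10.1 gene table, used for names only.

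Log2 signals, not rescaled further, were filtered (at least 3 arrays at or above their own 40th percentile) and fitted by group means in R 4.3.3 with limma 3.58.1, eBayes with trend, over all 9 arrays (6 residual and 9.37 prior degrees of freedom). Tests were two-sided. The number of arrays limits the precision. The step was tested on simulated data. All measured listed genes are named, and from each other list the 3 tested genes with the smallest p in any comparison, or all where at most 4 were tested. Outside this rule, the measured but untested shoot markers are named, as are the plastid genes stated above to be named after their values were seen. The genes and lists were chosen with earlier results of these data known. Alternatives were no dim filter, the 60th percentile, quantile normalization, median-centring, an offset of 50, no trend, a replicate block, only the 6 arrays compared, the dimmer probe set of a gene, and each array left out.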

Additional observations from a re-analysis of the deposited data

How the results depend on the processing

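The falls of LHCB4.1, LHCB4.2 and PIFI and the rise of SBPASE in SCL3OE, against ga1-3 and against scl3-1, kept their direction and call under every alternative that tested them; a filter at the 60th percentile left PIFI and SBPASE untested, so that 0 genes were higher in SCL3OE than in scl3-1, by construction. The count higher in SCL3OE than in ga1-3 was 4, and 1 to 4 with single arrays left out (2 without SCL3OE replicate 1 or 2, and 1 without replicate 3); the cause was not tested. The count lower was 3, and 2 to 4 elsewhere. In scl3-1 against ga1-3 it was 0 under every alternative. Changes near 0 that were called under no setting turned sign with single arrays left out. PSAE1 in SCL3OE against ga1-3 ran from -0.06 (without SCL3OE replicate 3; -0.03 without ga1-3 replicate 3) up to 0.13. In scl3-1 against ga1-3, LHCB4.1 ran from -0.01 (without scl3-1 replicate 2) up to 0.26, PSAN from -0.12 up to 0.07 (without scl3-1 replicate 1; 0.02 without ga1-3 replicate 3) and ATPC1 from -0.13 up to 0.12 (without scl3-1 replicate 1; 0.09 without ga1-3 replicate 2). PSBW turned in SCL3OE against scl3-1 (-0.03 without SCL3OE replicate 2 and -0.02 without scl3-1 replicate 1). The median of all tested probe sets in SCL3OE against scl3-1 was -0.07 as deposited and 0.06 with median-centred arrays. In scl3-1 against ga1-3, 76 of all probe sets were called, against 36 with no dim filter, 20 by eBayes without trend, 30 with only the 6 arrays compared, and 3 (without scl3-1 replicate 2) to 148 (without ga1-3 replicate 1) with single arrays left out.

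Deviations of same-numbered arrays correlated at -0.19 to 0.18 over tested probe sets, and those of differently numbered arrays at -0.17 to 0.24. These correlations showed no pairing by replicate number over all tested probe sets, and cannot settle it for single genes. With a replicate block the count lower was 4, ATPC1 being added, and the count higher stayed at 4. No listed gene had several named probe sets, so the dimmer probe set changed nothing. Signals of LHCB4.3, PRK, PIFI in SCL3OE and SBPASE outside SCL3OE lay near or below the filter level, which limits the size of their changes.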
